A study of Mus musculus with 30 samples.

Results

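Acta2, Tagln, Myl9, Pdgfra, Pdgfrb, Vim, Postn, Fn1, Sparc and Thy1 were followed in kidney and pancreas as a set of fibroblast and myofibroblast markers. These 10 genes were chosen by name, with earlier results of these data known, and each had 1 row in both tables, of 19468 rows in kidney and 19685 in pancreas. All 10 reached the detection filter for testing in both tissues (at least 1 FPKM, fragments scaled to transcript length and library size, in at least 5 of the 15 libraries of a tissue), among 12431 genes tested in kidney and 10781 in pancreas. None was at 0 in any library. In pancreas, Pdgfra and Postn reached 1 FPKM in 5 of the 10 libraries outside the p53 KO group, Pdgfrb in 7 and Thy1 in 8, so these libraries alone met the filter.

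The mice were C57BL/6 and the 30 libraries form 6 groups of 5 mice, 1 group for each of 3 genotypes in each of 2 tissues. The i4F mouse carries the reprogramming factors Oct4, Sox2, Klf4 and Myc under a doxycycline-inducible promoter. All animals, the i4F reference group included, received doxycycline at 0.2 mg/ml for 7 days, so no group shows tissue without the drug. In kidney the genotypes were i4F, i4F Ink4a/Arf KO, which lacks the locus of the cell-cycle inhibitors p16 and p19, and i4F p53 KO. In pancreas they were i4F, i4F Ink4a/Arf KO and a group labelled only p53 KO. The labels give neither age nor sex. They do not say which alleles or which cells the knockouts affect, and whole pieces of organ were used.

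Fibroblasts are the cells that lay down and remodel connective tissue. In injury they can become myofibroblasts, which assemble contractile bundles of smooth muscle actin and secrete collagen-rich matrix, largely under the control of TGF-beta, while PDGF acting on its receptors drives their growth and migration. In kidney the PDGF receptors mark interstitial fibroblasts and pericytes, and in pancreas stellate cells and resident fibroblasts take this part. None of the 10 genes belongs to fibroblasts alone. Acta2, Tagln and Myl9 are also abundant in vascular smooth muscle, Vim and Sparc in endothelium and Vim in leukocytes, Fn1 in macrophages, and Thy1 in T cells.

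Before the markers, the libraries were checked. Cdkn2a, the Ink4a/Arf gene, was at or near 0 in both i4F groups and both Ink4a/Arf KO groups, with a highest value of 0.318 FPKM, so its level does not check that label. Kidney Trp53 measured 16.4 ± 2.199 FPKM (SD, n = 5) in i4F and 7.04 ± 2.12 in i4F p53 KO. Pancreas Trp53 measured 3.40 ± 2.14 FPKM as deposited in i4F and 15.6 ± 7.12 in the group labelled p53 KO, with no lower level to bear out the label. As deposited, 91.2% of all genes tested were higher in that group, so the rise is not particular to Trp53, and its scaled value is not reported here. The direction of each pancreas difference below rests on these labelled groups. Pou5f1, the Oct4 gene, reached 24.6 to 98.2 FPKM in the p53 KO group and at most 1.91 in the other 10 pancreas libraries. The summed share of acinar enzyme genes in all FPKM was 65.0% to 77.3% in the 10 other pancreas libraries. In p53 KO it was 8.89%, 18.9%, 34.5%, 51.2% and 1.09% in replicates 1 to 5. Because FPKM divides by all reads, a library with less acinar RNA gives every other gene a higher value, so each pancreas difference is also given after median-of-ratios scaling (called scaled), which sets the typical gene equal between libraries. Scaling factors were 0.463 to 1.00 in the other pancreas libraries and 1.31 to 3.93 in p53 KO. Sequencing depth, read from the steps between low values, varied by less than that, between 0.880 and 1.51 times that of i4F replicate 1 in pancreas and between 0.886 and 1.11 times in kidney. Xist marked 3 kidney and 4 pancreas libraries as female, none of them in a p53 KO group.

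In pancreas, all 10 markers were higher in p53 KO than in i4F. The log2 fold changes, on the log2(FPKM + 1) scale, ran from 2.41 for Pdgfrb to 5.17 for Postn, with a median of 3.81. Of all genes tested, 91.2% were also higher by the same rule (adjusted p under 0.05, limma) and 2.25% lower, with a median of 1.58, so the count of 10 of 10 lies near the background. After scaling, 10 of 10 markers still passed as higher, against 33.5% of all genes higher and 33.2% lower. Their scaled median was 1.90, against 0.00 over all genes. In bulk tissue, more cells of a type and more RNA per cell cannot be told apart.

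The contractile genes are described first. Acta2, smooth muscle alpha-actin and the classical myofibroblast marker (chr19:34241090-34255590, minus strand, GRCm38), was at 1.496, 2.64, 3.05, 9.51 and 1.67 FPKM in i4F replicates 1 to 5. It was at 75.6, 104.9, 83.8, 31.6 and 321 FPKM in p53 KO. Every p53 KO library lay above every i4F library, and replicate 5 stood far above the other p53 KO libraries. On the log2 scale the Acta2 difference was 4.55 (SE 0.52, adjusted p = 8.12e-07), and 2.70 after scaling (adjusted p = 8.17e-05).

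Tagln encodes transgelin (SM22), an actin-binding protein of smooth muscle (chr9:45929619-45936058, minus strand). Its values were 1.30, 2.08, 2.38, 8.99 and 1.99 FPKM in i4F and 66.0, 69.3, 54.4, 21.8 and 186 in p53 KO, again without overlap. Its log2 fold change was 4.11 (SE 0.47, adjusted p = 8.59e-07) and 2.30 after scaling (adjusted p = 4.92e-05). In the GENCODE annotation an antisense transcript on the other strand covers 62.4% of the Tagln exon bases, and Pcsk7 covers 5.43%, so Tagln reads are assigned with certainty only if the counting used strand, which is not given in the sources used here.

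Myl9, the regulatory light chain of smooth muscle myosin (chr2:156775420-156781658, plus strand), changed least of the contractile members. It measured 3.45 ± 1.34 FPKM (SD, n = 5) in i4F and 35.7 ± 33.7 in p53 KO, and replicate 5 alone reached 95.0 while the other p53 KO libraries held 12.1 to 28.0. Its log2 difference was 2.73 (SE 0.41, adjusted p = 8.29e-06) and 0.91 after scaling (adjusted p = 0.0188). After scaling the groups overlapped, with i4F at 2.80 to 7.05 and p53 KO at 6.21 to 25.5.

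Smooth muscle genes are classically driven by serum response factor at CArG boxes, and the 250 bases upstream of the RefSeq start are shown for the contractile members that the RefSeq promoter table holds (GRCm38.p6). Capitals mark the CArG box found by exact match (CC, 6 letters A or T, then GG). Boxes with a G or C among the 6 letters were not searched for. An unmarked window, as for Acta2, which holds ccctatatgg and ccttgtttgg, thus does not show that such a box is absent. The windows are chr2:156775214-156775463 (plus strand) for Myl9 and chr19:34255374-34255623 (minus strand) for Acta2, each written 5′ to 3′.
Myl9: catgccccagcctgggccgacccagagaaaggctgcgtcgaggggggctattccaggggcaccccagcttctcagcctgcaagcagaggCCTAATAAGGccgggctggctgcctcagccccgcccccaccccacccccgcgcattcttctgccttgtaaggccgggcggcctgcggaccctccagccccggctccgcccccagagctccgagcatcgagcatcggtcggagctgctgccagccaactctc
Acta2: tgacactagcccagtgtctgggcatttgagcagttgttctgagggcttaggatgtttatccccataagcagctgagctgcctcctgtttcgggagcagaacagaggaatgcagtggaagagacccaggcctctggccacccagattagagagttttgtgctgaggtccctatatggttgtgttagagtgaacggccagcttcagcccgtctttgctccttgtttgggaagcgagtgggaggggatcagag
The table held 7 promoters of 6 members (Acta2, Myl9, Pdgfra, Postn, Sparc and Vim). An exact CArG box was found in that of Myl9, at positions -161 to -152 from the start, and in 1.63% of the 32851 promoters of the table (535), each of 300 bases. CAGACA, the letters of a SMAD binding element searched on both strands, was found upstream of Acta2 and Sparc, and in 21% of all promoters. A match describes the letters and was not tested as a site.

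The matrix genes held the largest differences. Postn encodes periostin, a matricellular protein of remodelling tissue (chr3:54361109-54391037, plus strand). It was at 0.505, 0.289, 1.005, 3.85 and 2.91 FPKM in i4F and at 109.6, 102.4, 85.5, 18.7 and 229.7 in p53 KO. The group means differed 63.8 times and the lowest p53 KO library was well above the highest i4F library. The log2 difference was 5.17 (SE 0.50, adjusted p = 2.04e-07), rank 64 from the highest of 10781 genes, and 3.51 after scaling (adjusted p = 1.60e-06).

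Sparc, a secreted collagen-binding glycoprotein (chr11:55394500-55423183, minus strand), had the highest group mean of the 10 in each of the 6 groups. In pancreas i4F it measured 17.1, 14.7, 18.6, 61.7 and 25.2 FPKM, and in p53 KO 1079, 1112, 385, 136.4 and 2162. Its log2 fold change was 4.77 (SE 0.56, adjusted p = 1.06e-06), or 2.76 after scaling (adjusted p = 1.49e-05). The groups did not overlap on either scale.

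Fn1, fibronectin, which links matrix to integrins (chr1:71585520-71653200, minus strand), measured 1.17, 1.93, 3.38, 20.2 and 4.11 FPKM in i4F and 166.9, 239.4, 58.6, 24.0 and 320.3 in p53 KO. Its log2 fold change was 4.52 (SE 0.63, adjusted p = 4.60e-06), or 2.68 after scaling (adjusted p = 0.000134). The separation was narrow for 1 pair of libraries, since i4F replicate 4 and p53 KO replicate 4 differed by little, and after scaling these overlapped at 20.2 and 18.4.

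Vim, the intermediate filament of mesenchymal cells (chr2:13573927-13582826, plus strand), was at 8.24, 10.8, 13.1, 62.4 and 15.4 FPKM in i4F and at 270.4, 264.8, 146.2, 61.7 and 437.5 in p53 KO. It was the 1 marker whose groups overlapped as deposited, through the same replicates 4. Its log2 fold change was 3.50 (SE 0.50, adjusted p = 5.91e-06), or 1.51 after scaling (adjusted p = 0.000669).

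The PDGF receptors rose with the smallest log2 fold changes of the set. Pdgfra, which marks resident fibroblasts (chr5:75152292-75198215, plus strand), was at 0.922, 0.729, 1.18, 2.61 and 1.45 FPKM in i4F and at 14.3, 14.95, 6.68, 4.10 and 31.9 in p53 KO. Pdgfrb, the receptor of pericytes and fibroblasts (chr18:61045150-61085061, plus strand), followed it closely, with 1.47 ± 0.813 FPKM (SD, n = 5) in i4F and 14.3 ± 9.87 in p53 KO. The log2 fold changes were 2.45 for Pdgfra (SE 0.37, adjusted p = 1.03e-05) and 2.41 for Pdgfrb (SE 0.37, adjusted p = 1.09e-05). After scaling they were 0.86 (adjusted p = 0.000923) and 0.80 (adjusted p = 0.0020). Neither receptor's groups overlapped on either scale.

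Thy1, a GPI-anchored surface protein of fibroblasts and T cells (chr9:44043384-44048579, plus strand), was at 1.15, 1.00, 2.27, 6.18 and 2.36 FPKM in i4F and at 23.3, 28.6, 26.2, 12.05 and 68.2 in p53 KO. The log2 fold change was 3.13 (SE 0.40, adjusted p = 2.12e-06), or 1.40 after scaling (adjusted p = 0.000646). No gene of the T cell list (Cd3e, Cd3d, Cd3g, Cd2, Lck, Cd4, Cd8a) reached the filter. Their sum was 33.8 FPKM in p53 KO replicate 1 and 1.08 to 3.72 in the other p53 KO libraries. In i4F their sum was 13.4 FPKM in replicate 4, which also held that group's highest Thy1, and at most 1.14 in the other libraries. The part of T cells in the Thy1 levels was not tested.

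**Figure D1:**
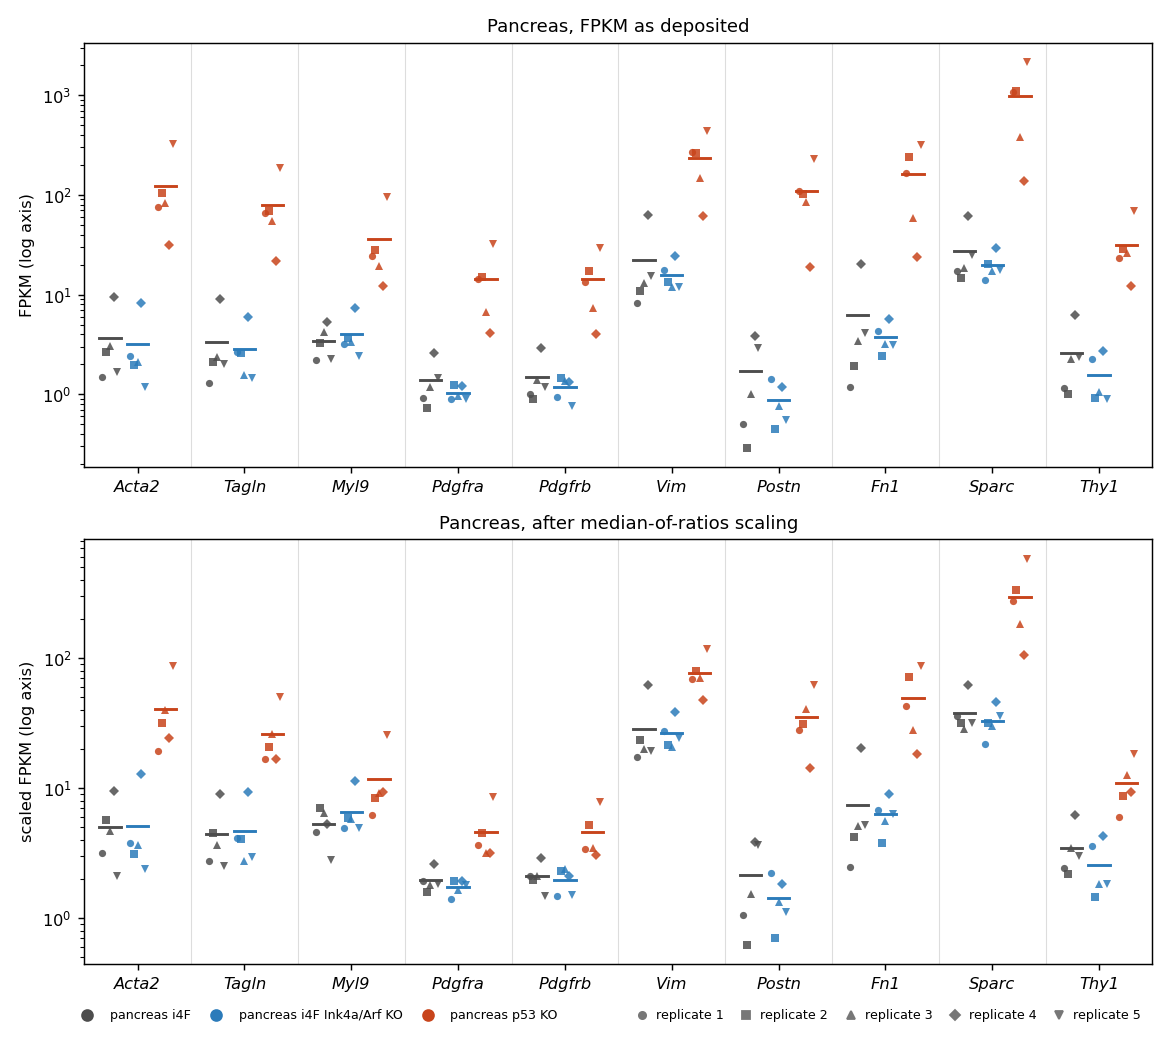
FPKM of the 10 markers in each of the 15 pancreas libraries (log axis), as deposited above and after median-of-ratios scaling below; points are libraries, shapes are replicate numbers and bars are group means. The p53 KO libraries lie above the i4F libraries for 9 of 10 markers as deposited and for 6 of 10 after scaling, with replicate 5 highest for each marker.

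Counted over the set, the p53 KO and i4F pancreas libraries did not overlap for 9 of 10 markers, against 73% of all genes higher without overlap. After scaling this held for 6 of 10, against 24.2%, and Myl9, Vim, Fn1 and Thy1 overlapped. On FPKM as deposited, leaving out any single pancreas library left all 10 markers past the threshold. With all libraries 91.2% of all genes passed as higher on that scale, and leaving out was not run on scaled values. By size of the difference among all 10781 genes, the order from the highest was Postn, Sparc (rank 106), Acta2 (130), Fn1 (134), Tagln (200), Vim (421), Thy1 (666), Myl9 (1128), Pdgfra (1672) and Pdgfrb (1765).

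**Figure D2:**
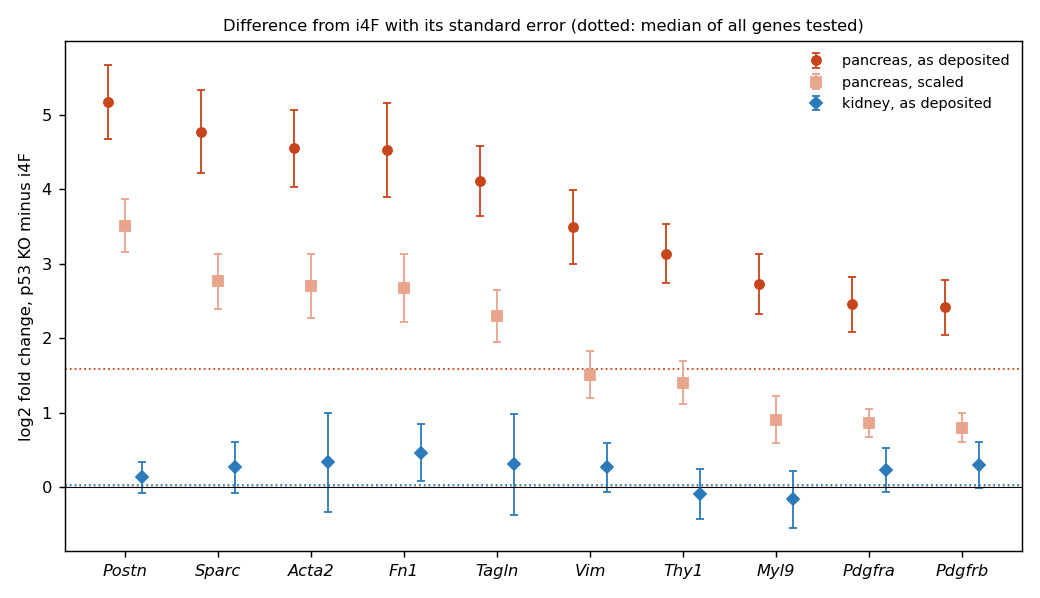
Log2 fold change with its standard error of each marker between p53 KO and i4F, for pancreas as deposited, pancreas scaled and kidney as deposited; dotted lines give the median of all genes tested. The pancreas values run from 2.41 to 5.17 as deposited and from 0.80 to 3.51 scaled, and the kidney values from -0.16 to 0.46.

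The p53 KO pancreas libraries differed widely among themselves. Replicate 5 was highest for 10 of 10 markers, as were 41.3% of all genes, and replicate 4 was lowest for 10 of 10, as were 91.2% of all genes. After scaling, replicate 5 stayed highest for 10 of 10 (24.1% of all genes) and replicate 4 was lowest for 7 (29.4%). Replicate 5 also held the smallest acinar share, 1.09%, and replicate 4 the largest of its group, 51.2%. In total the 10 markers made up 0.742% of all FPKM in replicate 5 and 0.0383% in replicate 4. In the i4F group, replicate 4 was highest for 10 of 10 markers (70.1% of all genes), and after scaling for 9 (24.2%). That i4F library also held the group's highest sums of macrophage and leukocyte markers (256.6 FPKM, the others 19.5 to 76.2), T cell markers (13.4, the others 0.230 to 1.14) and adipocyte markers (54.7, the others 0.0383 to 0.170). Their part in its marker levels was not tested.

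Genes related to the markers were counted in 4 lists, against the same background (91.2% of all genes higher as deposited, and 33.5% higher and 33.2% lower after scaling). Of the other contractile genes, 10 of 14 listed were tested in pancreas, and 10 were higher in p53 KO than in i4F as deposited. After scaling 8 of 9 were higher, with a median log2 fold change of 1.09, among them the filamin Flna (80.6 ± 44.0 against 3.67 ± 3.60 FPKM, SD, n = 5 each; scaled log2 fold change 2.31) and the tropomyosin Tpm2 (33.5 ± 24.1 against 0.717 ± 0.464; scaled 2.46). Of the matrix proteins and fibronectin receptors, 16 of 16 tested were higher as deposited, and 15 after scaling, with a scaled median of 1.97. The fibrillar collagens led this group, with Col1a1 at 1212 ± 1068 FPKM in p53 KO and 11.1 ± 7.17 in i4F (scaled log2 fold change 4.31), and Col3a1 at 1031 ± 743 and 19.03 ± 15.8 (scaled 3.55).

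Of the fibroblast and pericyte identity genes, 13 of 15 tested were higher as deposited. After scaling, 6 were higher and 4 lower, with a median of 0.13, and both counts of higher genes lie near the background. The higher genes included S100a4, a calcium-binding protein found in fibroblasts and in leukocytes (scaled log2 fold change 3.43), the microfibril protein Mfap5 (2.46), podoplanin (Pdpn, 2.11) and the mesenchymal transcription factor Prrx1 (1.54). The 4 lower genes were Gsn (-1.20), Dpt (-1.19), the pericyte marker Rgs5 (-1.09) and Notch3 (-0.49), a receptor of mural cells. These 4 are named because the count is small, after their values were seen. The pericyte genes of the list were not all lower, since Mcam passed as higher (0.52) and Kcnj8 did not pass (-0.01). Dcn, decorin, an abundant fibroblast proteoglycan, was at 56.8 ± 43.9 FPKM in i4F and 216.7 ± 166.2 in p53 KO, and its scaled log2 fold change of -0.33 did not pass (adjusted p = 0.403).

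Of the PDGF and TGF-beta signalling genes, 16 of 16 tested were higher as deposited, a count near the background. After scaling 8 of 14 were higher and 1 lower, the inhibitory Smad6 (-0.59). Smad7, the other inhibitory SMAD listed, was among the higher genes (0.36). The TGF-beta target Ctgf was at 57.2 ± 39.1 FPKM in p53 KO and 1.63 ± 1.32 in i4F (SD, n = 5 each; scaled log2 fold change 2.36). The ligand Tgfb1 and the receptor Tgfbr2 rose too, with scaled log2 fold changes of 1.53 and 1.73. The PDGF ligand genes Pdgfa (-0.04, adjusted p = 0.885) and Pdgfb (0.35, adjusted p = 0.0613) did not pass after scaling.

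Markers of other cell types were counted against the same background, and as deposited the counts of macrophage, epithelial, endothelial and stellate genes lie near it. All 6 macrophage and leukocyte markers tested were higher on both scales, with a scaled median log2 fold change of 2.03, and summed to 311.1 to 2046 FPKM in p53 KO and 19.5 to 256.6 in i4F. Lyz2, the lysozyme of macrophages, led them at 1109 ± 669 FPKM in p53 KO and 67.95 ± 86.1 in i4F (SD, n = 5 each; scaled log2 fold change 2.42). All 5 epithelial markers were higher as deposited and 4 after scaling, with a scaled median of 1.80 and sums of 795.9 to 2796 against 92.96 to 205.7 FPKM. The duct keratin Krt19 went from 20.4 ± 13.9 FPKM in i4F to 689.4 ± 259 in p53 KO (scaled log2 fold change 3.13). Msln, mesothelin, the 1 mesothelial marker of 2 tested that passed, was at 281 ± 204 FPKM in p53 KO and 1.24 ± 0.550 in i4F (SD, n = 5 each; scaled log2 fold change 4.64). The other, Upk3b, passed on neither scale and had a scaled log2 fold change of -0.37 (limma, adjusted p = 0.537). Of the 7 endothelial markers, 7 were higher as deposited, but after scaling none was higher and Kdr (-0.72) and Pecam1 (-0.51) were lower. The endothelial list summed to 40.2 to 131.0 FPKM in p53 KO and 18.7 to 39.3 in i4F. Of 6 acinar markers tested, Clps, Cel and Cpb1 were lower on both scales and none was higher, and Ctrb1 was listed at 0 in each i4F library. The 3 stellate markers tested were higher as deposited and 1 of them after scaling, with a scaled median of 0.50. No defining marker of the macrophage, epithelial, mesothelial or endothelial lists was at 0 throughout either group. The part of these cells in the marker levels was not tested.

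**Figure D3:**
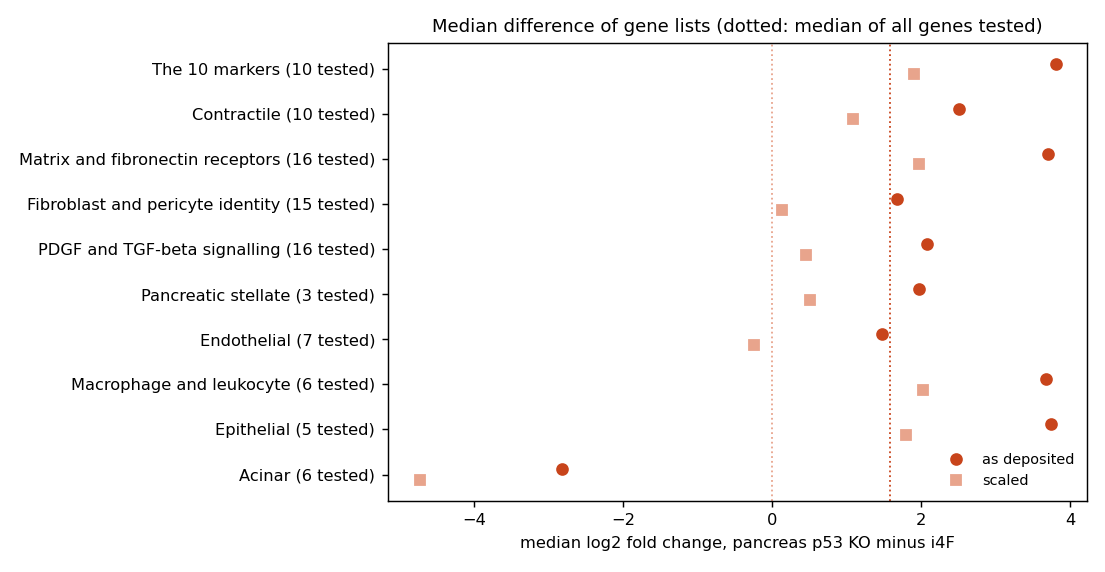
Median log2 fold change between p53 KO and i4F in pancreas for the 10 markers, 4 lists of related genes and 5 lists of cell type markers, as deposited and scaled; dotted lines give the medians of all genes tested (1.58 and 0.00). The markers lie at 3.81 and 1.90, near the matrix, macrophage and epithelial lists, and the fibroblast identity list lies at 1.68 and 0.13.

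Against i4F Ink4a/Arf KO, the p53 KO pancreas gave similar values, from the same p53 KO libraries. All 10 markers were higher (91.7% of all genes were), from 2.56 for Pdgfrb to 5.54 for Postn, and no group overlapped (85.7% of all genes). After scaling 9 of 10 passed (33.1% of all genes) and 9 did not overlap (27% of all genes). Myl9 did not, at a log2 fold change of 0.65 (adjusted p = 0.0797).

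Loss of Ink4a/Arf by itself came with no called marker in pancreas. Between i4F Ink4a/Arf KO and i4F, 0 of 10 markers and 0 genes overall passed with limma. At an unadjusted p under 0.05 there were 36 genes and 0 markers. The log2 fold changes lay between -0.38 and 0.14, with a median of -0.15, against -0.07 over all genes. After scaling 0 markers and 0 genes passed, 505 genes and 0 markers had an unadjusted p under 0.05, and the markers lay between -0.31 and 0.26 with a median of -0.06, against 0.02 over all genes. Acta2, for example, measured 3.67 ± 3.33 FPKM (SD, n = 5) in i4F and 3.16 ± 2.82 with Ink4a/Arf deleted, with replicate 4 the highest library in each group.

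None of the markers passed in kidney with the same test. Between i4F p53 KO and i4F, 0 of 10 passed with limma, against 0.257% of all genes (32), and at an unadjusted p under 0.05 there were 1641 genes and 0 markers. The log2 fold changes ran from -0.16 for Myl9 to 0.46 for Fn1, with a median of 0.27, against 0.03 over all genes. Adjusted p-values lay between 0.642 and 0.935. With limma's array weights, which give less weight to libraries that vary more, 3 of 10 passed, namely Fn1 (1.05, adjusted p = 0.0323), Pdgfrb (0.78, adjusted p = 0.0193) and Pdgfra (0.60, adjusted p = 0.0469). The 0.257% above is for the fit without weights, and the share of all genes that passed with weights is not reported here. In each other setting tried these 3 did not pass, and over all settings the adjusted p ran from 0.0323 to 0.917 for Fn1, 0.0193 to 0.971 for Pdgfrb and 0.0469 to 0.955 for Pdgfra.

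Kidney Acta2 measured 26.9, 18.8, 20.9, 89.98 and 61.1 FPKM in i4F replicates 1 to 5. The i4F p53 KO kidneys held 104.9, 28.1, 24.3, 170.1 and 15.2, and those of i4F Ink4a/Arf KO 40.8, 59.7, 95.4, 15.8 and 64.4. Each genotype thus held both high and low kidneys, and the ranges overlapped fully. The i4F kidneys 4 and 5 were the high ones and the female ones of their group, and sex was not tested as a cause. The log2 fold change of Acta2 between i4F p53 KO and i4F was 0.33, smaller than its SE of 0.66.

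Tagln tracked Acta2, at 25.9, 19.4, 19.5, 97.5 and 67.3 FPKM in i4F and 113.2, 30.7, 29.1, 147.2 and 12.5 in i4F p53 KO (log2 fold change 0.31, SE 0.67). Mean Pdgfrb was 9.46 ± 2.09 FPKM (SD, n = 5) in i4F, 13.1 ± 6.06 in i4F p53 KO and 10.2 ± 1.92 with Ink4a/Arf deleted. In i4F p53 KO, replicate 5 was at 3.80 and the other libraries at 11.9 to 18.9, all but 1 of them above 12.8, the highest i4F value. Pdgfra behaved likewise, with 1.57 FPKM in i4F p53 KO replicate 5 and 6.30 to 8.44 in the other libraries of that group. Replicate 5 was the lowest of its group for 9 of 10 markers, as it was for 40.9% of all genes.

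Postn was the lowest of the 10 genes in each kidney group and the 1 kidney marker with an unadjusted p under 0.05. It was at 0.963, 0.902, 0.252, 1.19 and 0.882 FPKM in i4F and at 1.23, 2.03, 2.25, 1.12 and 1.65 in i4F Ink4a/Arf KO. Only the lowest Ink4a/Arf KO library fell below the highest i4F library. After scaling the 5 Ink4a/Arf KO libraries all lay above the i4F ones, at 1.139 and over against at most 1.09, as held for 0.821% of all genes. As deposited its log2 fold change was 0.54 (SE 0.21, unadjusted p = 0.0214) and did not pass (adjusted p = 0.997), and in that comparison 398 genes had an unadjusted p under 0.05 and 0 passed. The median over the 10 markers in that comparison was 0.31, against -0.00 over all genes, with a range of -0.02 to 0.54. Between i4F p53 KO and i4F Ink4a/Arf KO, 0 of 10 markers passed (0.265% of all genes did), with values from -0.42 to 0.24.

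Kidney Thy1 was spread by 1 library. It measured 6.61 FPKM in i4F Ink4a/Arf KO replicate 1 and 0.943 to 2.71 in the other 4 of that group, and 1.09 to 2.38 in i4F. The same library held 23.8 FPKM of summed T cell markers, against 2.04 to 3.56 in the others of its group, and 313.7 FPKM of summed macrophage and leukocyte markers, against 40.7 to 67.4. It also held the group's highest Vim, 49.4 FPKM. The part of these cells in its Thy1 and Vim levels was not tested.

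**Figure D4:**
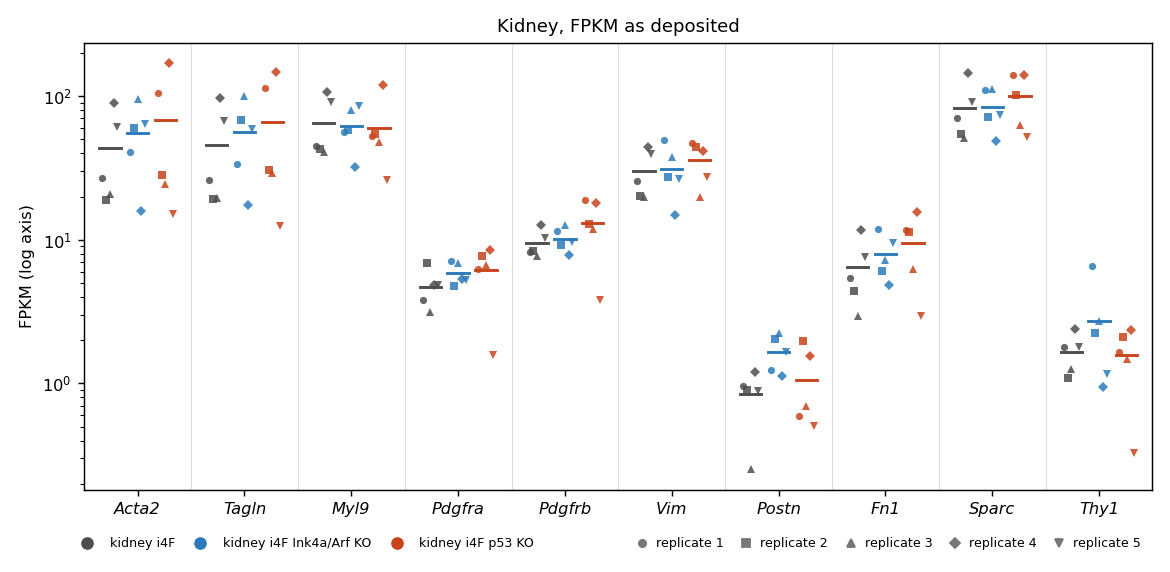
FPKM of the 10 markers in each of the 15 kidney libraries (log axis); points are libraries, shapes are replicate numbers and bars are group means. As deposited the genotypes overlap for each marker, and i4F p53 KO replicate 5 lies below the rest of its group for 9 of 10.

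The p53 KO difference was larger in pancreas than in kidney for all 10 markers, tested as an interaction over the 30 libraries. By the same rule the interaction was called positive for 90.7% of all genes as deposited. Its size was 5.04 for Postn, 4.50 for Sparc, 4.21 for Acta2, 4.06 for Fn1 and 3.81 for Tagln. For the other members it was 3.23 for Vim and for Thy1, 2.89 for Myl9, 2.22 for Pdgfra and 2.11 for Pdgfrb. After scaling 7 of 10 passed (23.8% of all genes), and Myl9 (1.10, adjusted p = 0.0582), Pdgfra (0.66, adjusted p = 0.11) and Pdgfrb (0.53, adjusted p = 0.194) did not. The kidney group is labelled i4F p53 KO and the pancreas group p53 KO, so a difference between these labels cannot be told apart from the tissue. For Ink4a/Arf KO against i4F the interaction passed for 0 of 10 markers and 0 genes, with 52 genes and 0 markers at an unadjusted p under 0.05. After scaling 0 genes passed, and 607 genes and 0 markers had an unadjusted p under 0.05. Taken against i4F Ink4a/Arf KO, from the same p53 KO libraries, the interaction passed for 10 of 10 markers (90.5% of all genes) and after scaling for 8 (26.8%).

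The order of the levels also differed between the tissues, which were deposited as separate tables, so levels are set side by side without a test. Kidney i4F ran from Sparc (82.1 ± 38.1 FPKM, SD, n = 5), Myl9 (65.3 ± 30.9), Tagln (45.9 ± 35.1), Acta2 (43.5 ± 31.1) and Vim (30 ± 11.5) down to Pdgfrb (9.46), Fn1 (6.43), Pdgfra (4.70), Thy1 (1.66) and Postn (0.838). Neighbours in this order overlapped except Vim with Pdgfrb and Pdgfra with Thy1. Pancreas i4F ran from Sparc (27.4 ± 19.6) and Vim (22.0 ± 22.7) to Fn1 (6.16 ± 7.95), Acta2 (3.67), Myl9 (3.45), Tagln (3.35), Thy1 (2.59), Postn (1.71), Pdgfrb (1.47) and Pdgfra (1.38), and all neighbours overlapped. In the p53 KO pancreas Sparc (975 ± 789), Vim (236 ± 142), Fn1 (162 ± 123) and Acta2 (123 ± 114) came first, followed by Postn at 109 ± 76.3 FPKM, above Tagln (79.5), Myl9 (35.7), Thy1 (31.7), Pdgfra (14.4) and Pdgfrb (14.3).

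Across the 15 kidneys 6 pairs of markers were examined, and differences between their correlations were not tested (Pearson's r on log2(FPKM + 1) and Spearman's rho, permutation tests of 100000 resamples, 12 relations in the family). Acta2 and Tagln rose and fell almost in step, with r = 0.989 and rho = 0.982 (permutation p = 1e-05 for each, the smallest the resamples can give, adjusted 6e-05 and 0.00012). Without the 2 libraries farthest from the median, r stayed at 0.989, and after centring by genotype it was 0.988. Acta2 and Myl9 gave r = 0.875 and rho = 0.868 (permutation, adjusted p = 0.00012 and 0.00024; 0.810 without 2 libraries). Vim and Sparc gave r = 0.911 and rho = 0.875 (permutation, adjusted p = 6e-05 and 0.00018; 0.912 without 2 libraries). Pdgfra and Pdgfrb gave r = 0.824 and rho = 0.689 (permutation, adjusted p = 0.00092 and 0.00921), which fell to 0.590 without i4F p53 KO replicate 5 and i4F replicate 3. Pdgfra and Acta2 were not related past the threshold (r = 0.461, rho = 0.386, permutation, adjusted p = 0.0805 and 0.172; 0.164 without 2 libraries). Postn and Fn1 were at the threshold (r = 0.524, rho = 0.457, permutation, adjusted p = 0.0496 and 0.106; 0.444 without 2 libraries).

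**Figure D5:**
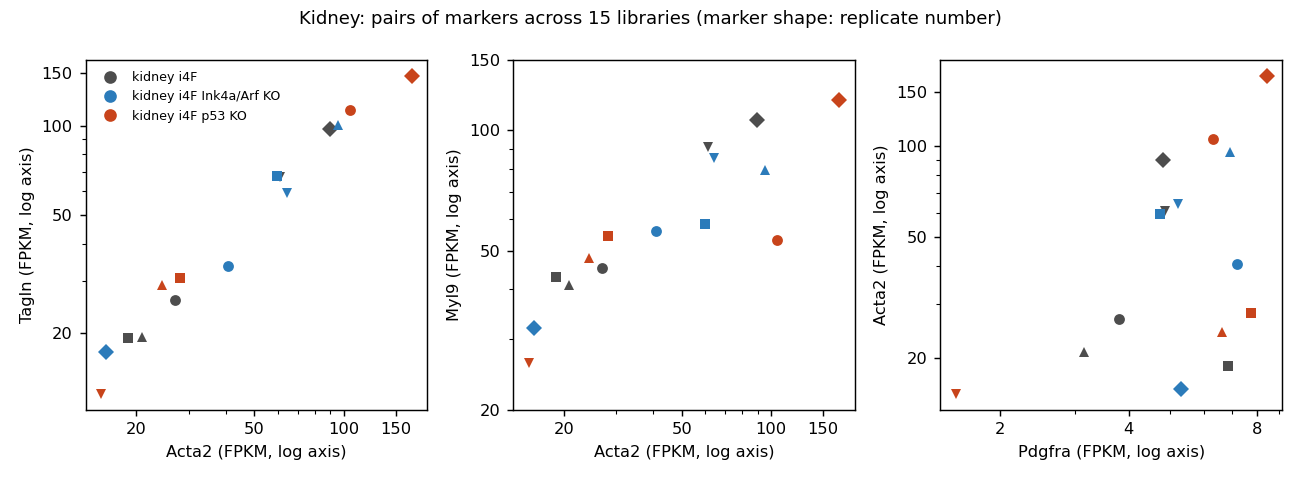
FPKM of Tagln and of Myl9 against Acta2, and of Acta2 against Pdgfra, in the 15 kidney libraries (log axes), coloured by genotype with the replicate number as shape. Acta2 and Tagln fall on a line (r = 0.989), Myl9 follows with more scatter (r = 0.875), and Pdgfra spreads across the Acta2 range (r = 0.461).

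In the 10 pancreas libraries of i4F and i4F Ink4a/Arf KO, some relations rested on few libraries. Acta2 and Tagln gave r = 0.957 and rho = 0.830 (permutation, adjusted p = 0.00092 and 0.00828), and 0.683 without replicate 4 of each group. Vim and Sparc fell from 0.893 (rho 0.648, permutation, adjusted p = 0.00727 and 0.0654) to 0.153 without the same 2 libraries, so that relation rests on them. Pdgfra and Pdgfrb fell from 0.912 (rho 0.830, permutation, adjusted p = 0.00369 and 0.00828) to 0.595. Pdgfra and Acta2 fell from 0.668 (rho 0.333, permutation, adjusted p = 0.0496 and 0.349) to 0.324. Acta2 and Myl9 held at 0.908 (rho 0.842, permutation, adjusted p = 0.00092 and 0.00828) and 0.829 without 2 libraries, and Postn and Fn1 at 0.836 (rho 0.915, permutation, adjusted p = 0.00278 and 0.00171) and 0.803. Of 10767 genes, Fn1 ranked 3371 by r with Postn and Acta2 6862 with Pdgfra, while Myl9 ranked 17 with Acta2. After scaling, Pdgfra and Pdgfrb gave r = 0.668, and 0.031 without 2 libraries. Vim and Sparc gave 0.724 and -0.597 in the same order, and Pdgfra and Acta2 0.401 and -0.016. Acta2 and Tagln gave 0.937 and 0.709, Acta2 and Myl9 0.780 and 0.839, and Postn and Fn1 0.685 and 0.671.

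The genes most like Acta2 over the 15 kidneys, by Pearson's r on log2(FPKM + 1), were Tagln (0.989), Tpm2 (0.979) and Tpm1 (0.975). For Pdgfra, Flt1 (0.926) and A430107O13Rik (0.917) were among the closest 3, and for Postn the closest were Cobll1 (0.855), Gnai1 (0.829) and Arhgap32 (0.817). Over the 10 pancreas libraries of i4F and i4F Ink4a/Arf KO, Tpm2 (0.976), smooth muscle myosin Myh11 (0.973) and Vwf (0.963) came closest to Acta2. Osbpl9 (0.996) came closest to Pdgfra and Nucks1 (0.988) to Postn. These are among the highest of 12422 correlations in kidney and 10767 in pancreas for each gene, and are given as a description.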

How the data were processed

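RNA of kidney and pancreas from 30 libraries was sequenced as stranded poly(A) libraries with 8 PCR cycles, over 24 M mapped reads per sample and RNA integrity numbers of 7.4 to 9.4, per the labels' protocols. The authors deposited gene values as FPKM, in 1 table per tissue. The submitters' processing notes name TopHat2 2.0.10, Bowtie 1.0.0, SAMtools 0.1.19, Cufflinks 2.2.1 and the build mm10, without roles. Whether libraries were scaled further, and the absolute depth of a gene, is not given in the sources used here, so no counting interval was computed.

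Each tissue's 15 libraries were fitted together in limma 3.58.1 (R 4.3.3, moderated test, intensity trend) on log2(FPKM + 1), after a filter of 1 FPKM in 5 libraries. Tests were two-sided with Benjamini-Hochberg adjustment over all genes tested and a threshold of 0.05, without covariates. The 3 genotypes were compared pairwise in each tissue and, as an interaction, between tissues. The + 1 understates the differences of genes at low levels. For median-of-ratios scaling, a library's factor was the median over genes of its value relative to the gene's geometric mean in that tissue. The fit was tested on simulated data. In the kidney i4F p53 KO against i4F comparison (12347 genes), it recovered 88% of genes changed by 1 on the log2 scale. It recovered 100% of those changed by 2, and in the pancreas p53 KO against i4F comparison (8926 genes) 50% and 92%. Only genes with a mean log2(FPKM + 1) above 3 were changed, with independent normal noise for each gene. These shares thus do not cover markers at lower levels, such as Postn, Thy1 and Pdgfra in kidney. For kidney Acta2 and Tagln in that comparison the SE were 0.66 and 0.67, so a difference of 1 could be missed.

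The 10 markers, the gene lists and the tests were chosen with earlier results of these data known. The genes to name outside the markers were, for each list, the 2 called members with the largest log2 fold change in each direction at 2 FPKM or more (the text names a part of these, and some genes the rule picks are not reported here), and for likeness the 3 genes with the highest r to Acta2, Pdgfra and Postn. Other list members, named where a count was small or a role was described, were chosen after their values were seen: Pdpn, Prrx1, Gsn, Dpt, Rgs5, Notch3, Dcn, Smad6, Tgfb1, Tgfbr2, Pdgfa, Pdgfb, Kdr, Pecam1 and Cpb1. The acinar share sums a textbook list of secretory enzymes drawn up after the data were seen. Gene positions came from GENCODE M21 (GRCm38) and promoter sequences from RefSeq (GRCm38.p6). Replicates are separate mice as labelled. Whether replicate numbers pair libraries is not stated; in kidney i4F p53 KO against i4F 3 of 5 same-numbered pairs had deviations correlated above 0.1 (-0.0789 to 0.291), so they were not taken as pairs.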

Additional observations from a re-analysis of the deposited data

Results flagged for a closer look

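In all, 60 groups of 5 libraries were examined (10 markers in 6 groups, FPKM as deposited). Of these, 13 held a highest library whose gap to the next was over 0.71 of the whole range. About 1 in 20 groups of independent, normally distributed values pass that limit. The markers share libraries, so the 60 are not separate trials, and the share of all genes flagged is not reported here. In pancreas, 70.1% of all genes were highest of their group in i4F replicate 4, 41.3% in p53 KO replicate 5 and 24.5% in i4F Ink4a/Arf KO replicate 4. All 13 flagged values came from these 3 libraries. In p53 KO replicate 5 these were Acta2 at 321.3 FPKM, Tagln at 186 and Myl9 at 95.0. In i4F Ink4a/Arf KO replicate 4 the same 3 genes stood apart, Acta2 at 8.14, Tagln at 5.95 and Myl9 at 7.26 FPKM. In i4F replicate 4 there were 7: Vim at 62.4, Sparc at 61.7, Fn1 at 20.2, Acta2 at 9.51, Tagln at 8.99, Thy1 at 6.18 and Pdgfrb at 2.89 FPKM.

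The difference between p53 KO and i4F itself differed between pancreas and kidney for each marker by an interaction test over 30 libraries. The interaction on the log2 scale was 5.04 for Postn, 4.50 for Sparc, 4.21 for Acta2, 4.06 for Fn1, 3.81 for Tagln, 3.23 for Vim, 3.23 for Thy1, 2.89 for Myl9, 2.22 for Pdgfra and 2.11 for Pdgfrb. By the same test 90.7% of all genes were called with a positive interaction, and after scaling 7 of the 10 markers passed.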

How the results depend on the processing

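The 10 markers passed in both p53 KO comparisons of the pancreas when any 1 library was left out. They also passed with male libraries only and after scaling to the FPKM outside acinar genes, 2 settings chosen after seeing the data. The shares of all genes that passed in these 2 settings are not reported here, so their counts are no separate support. The runs without 1 library and with male libraries only used FPKM as deposited. On that scale, with all libraries, 91.2% of all genes passed as higher against i4F and 91.7% against i4F Ink4a/Arf KO. A filter of 5 FPKM tested 8 of the 10 markers in pancreas, and 8 passed. In both p53 KO interactions with tissue that filter tested 6 and 6 passed. Postn met the filter in pancreas only through p53 KO (18.7 FPKM or more, at most 3.85 in i4F and 1.41 in i4F Ink4a/Arf KO). Such a gene is high in p53 KO by selection, so these counts are no separate support. The share of all genes that passed at that filter is not reported here. With the replicate number as a block (replicate block), 10 passed in pancreas and 0 in kidney for p53 KO against i4F, as without it. No other count of markers changed, and the share of all genes that passed with the block is not reported here. Across tissues the consensus correlation was 0.0346. Under median-of-ratios scaling and quantile normalization Myl9 in pancreas against i4F Ink4a/Arf KO (0.65 and 0.69), and Myl9, Pdgfra and Pdgfrb in the interaction of p53 KO against i4F with tissue, no longer passed, nor did Myl9 and Pdgfrb in that against Ink4a/Arf KO. Scaling lowered the called genes in pancreas p53 KO against i4F from 9827 higher and 243 lower to 3463 higher and 3434 lower. It also took the relations of Postn with Fn1 in kidney to r = 0.467 (permutation, adjusted p = 0.0977) and of Pdgfra with Acta2 in pancreas to 0.401 (permutation, adjusted p = 0.254).

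In kidney, array weights passed 3 markers for i4F p53 KO against i4F and 2 against i4F Ink4a/Arf KO, and other settings 0. The shares of all genes that passed with array weights are not reported here. None of the following kidney i4F p53 KO against i4F values, which changed sign, passed: Myl9 0.66 and Thy1 0.24 with array weights, Myl9 0.10 and Thy1 0.24 with Xist as a covariate, Myl9 0.31 and Thy1 0.060 with male libraries only, and Pdgfra -0.34, Pdgfrb -0.044 and Postn -0.21 without the libraries above 100 FPKM of the acinar gene Clps. The Clps limit took out i4F p53 KO replicates 2, 3 and 4 and i4F replicate 5. Of i4F p53 KO, only replicate 1 and the low replicate 5 then remained. Leaving out 1 library gave -0.14 to 0.71 for Acta2, -0.11 to 0.75 for Tagln, -0.45 to 0.087 for Myl9, -0.010 to 0.23 for Postn and -0.20 to 0.13 for Thy1. The cause was not tested. In the comparisons with Ink4a/Arf KO given above as ranges, the sign changed in 18 of 242 recomputed values in kidney against i4F, 27 of 268 in kidney against i4F p53 KO and 36 of 268 in pancreas against i4F. The depth per gene is unknown.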
